A study of Mus musculus with 9 samples.

Results

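The genes described here are the immunoglobulin heavy chain variable (Ighv) genes, taken as every row of the deposited gene table with the biotype IG_V_gene and a gene name starting with Ighv. There were 75 such genes among 41096 rows, all on chromosome 12 and in 16 families by the number after Ighv. Levels are FPKM, fragments per kilobase of gene length, scaled to the total of the sample. The samples were 9 peritoneal exudates from Apoe-/- mice, which lack apolipoprotein E, all on a western diet for 8 weeks. The 5 control samples came from mice given citrate buffer and the 4 diabetic samples from mice injected with 40 mg/kg of streptozotocin, which destroys insulin-producing beta cells. Both agents were given into the peritoneum on 5 days in a row, starting at 8 weeks of age. In the last diet week every mouse received 1.5 mL of 3% thioglycollate, an irritant that draws cells into the peritoneum. Cells were washed out with 10 mL of PBS 3 days later. The labels do not say whether mice were pooled for a sample. The p-values therefore measure only the spread between these samples, which may be technical. They also name no step that enriched macrophages or any other cell type.

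A developing B cell joins a variable gene to a diversity and a joining segment, and as a rule transcribes a single productive heavy chain from then on. The level of each Ighv gene in bulk RNA therefore follows which B cell clones and plasma cells a sample holds, and how much antibody RNA each makes. The peritoneal cavity is known for B-1 cells, whose B-1a subset often uses the VH11 and VH12 genes (Ighv11-2 and Ighv12-3) in receptors for phosphatidylcholine, a membrane phospholipid. Ighv7-1 encodes the T15 antibody to phosphorylcholine, which also binds oxidised low-density lipoprotein. In bulk samples, fewer cells of a type and less RNA per cell cannot be told apart.

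The labelled cell type is macrophage, and macrophage markers were abundant, summing to 1495 to 2147 FPKM in control and 1169 to 2094 FPKM in diabetic samples. B cell RNA was present in all 9 samples, with 6 defining B cell markers summing to 443 to 986 FPKM in control and 590 to 1392 FPKM in diabetic samples. Between 14156421 and 16169060 reads per sample fell in genes. The Ighv genes held 760 to 1706 of these reads in control samples and 840 to 1970 in diabetic samples, so most single genes rest on few reads.

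The sequences below belong to the genes on which the results turn. Ighv11-2 lies on chromosome 12 at 120206518 to 120207089 on the minus strand as the table gives it (identifier MGP_C57BL6NJ_G0000075), and at chr12:114048241-114048812 in GRCm38, with 2 exons. Ighv12-3 lies at 120636670 to 120637103 in the table (MGP_C57BL6NJ_G0000092) and at chr12:114366521-114366954 in GRCm38, also on the minus strand. Each line gives the last 290 bases of the GENCODE M21 transcript, 5′ to 3′, which hold most of the variable region. Ighv11-1, the other family 11 gene, is shown because it is nearly identical to Ighv11-2, and capitals in this pair mark the 4 bases at which they differ. Ighv9-3 had the highest mean of all members and Ighv3-4 led in a single control sample. In Ighv12-3, Ighv9-3 and Ighv3-4 the capitals mark a match to TANTNCTGT, letters that cover the codon of the conserved cysteine near the end of the variable region.
Ighv11-2: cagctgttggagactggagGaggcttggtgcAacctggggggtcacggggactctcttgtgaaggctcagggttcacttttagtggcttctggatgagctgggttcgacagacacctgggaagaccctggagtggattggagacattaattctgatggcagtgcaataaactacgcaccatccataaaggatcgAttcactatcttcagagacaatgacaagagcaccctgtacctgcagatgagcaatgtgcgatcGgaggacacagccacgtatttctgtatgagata
Ighv11-1: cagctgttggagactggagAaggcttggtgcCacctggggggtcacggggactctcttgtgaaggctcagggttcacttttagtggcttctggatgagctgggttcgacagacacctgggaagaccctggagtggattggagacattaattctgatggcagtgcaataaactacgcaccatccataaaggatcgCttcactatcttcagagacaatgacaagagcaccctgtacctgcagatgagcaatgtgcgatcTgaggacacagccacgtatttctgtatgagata
Ighv12-3: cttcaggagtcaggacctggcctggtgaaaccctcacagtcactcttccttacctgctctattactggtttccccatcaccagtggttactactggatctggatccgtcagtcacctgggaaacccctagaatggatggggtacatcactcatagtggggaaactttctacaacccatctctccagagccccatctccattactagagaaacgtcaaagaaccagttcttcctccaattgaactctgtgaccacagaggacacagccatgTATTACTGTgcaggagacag
Ighv9-3: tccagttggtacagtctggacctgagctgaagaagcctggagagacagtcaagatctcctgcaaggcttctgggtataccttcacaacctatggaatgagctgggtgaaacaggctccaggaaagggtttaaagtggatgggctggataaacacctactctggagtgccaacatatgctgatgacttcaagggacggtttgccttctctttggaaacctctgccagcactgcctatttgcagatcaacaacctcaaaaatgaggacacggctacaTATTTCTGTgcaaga
Ighv3-4: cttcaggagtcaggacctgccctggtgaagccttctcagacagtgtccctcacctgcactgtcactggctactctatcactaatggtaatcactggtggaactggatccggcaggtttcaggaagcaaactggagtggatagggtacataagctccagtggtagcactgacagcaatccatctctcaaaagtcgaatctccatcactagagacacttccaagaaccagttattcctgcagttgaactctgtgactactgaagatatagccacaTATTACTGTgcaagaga
The cysteine motif, searched on the sense strand, was found in the last 40 bases of 69 of the 75 members (92.0%). Ighv11-2 and Ighv11-1 were 98.6% identical over the printed stretch, whereas no other member was more than 76.2% identical to Ighv11-2. Ighv12-3 was at most 77.6% identical to any member. Across the 40 tested genes, identity to the nearest member had a median of 93.4% and ran from 75.2% to 98.6%. How reads that match several members were assigned is not given in the sources used here, so values of near-identical genes are uncertain, and 3 tested genes had a member at least 97% identical.

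Of 40 Ighv genes with enough RNA to test, Ighv11-2 alone passed the test, and it was lower in diabetic samples. Its level was 7.82, 9.13, 42.8, 8.96 and 8.21 FPKM in control samples 1 to 5 and 0.69, 1.91, 3.18 and 1.95 FPKM in diabetic samples 1 to 4. Every diabetic sample was below every control sample, and control 3 stood far above the other controls. The means were 15.4 ± 15.4 FPKM (SD, n = 5) and 1.93 ± 1.02 FPKM (SD, n = 4), a 7.96-fold difference that was 4.41-fold without control 3. The log2 fold change of log2(FPKM + 1), diabetic minus control, was -2.21 with SE 0.48 (adjusted p = 0.031, limma). These values rest on 56, 62, 282, 58 and 61 reads in control and 5, 13, 21 and 14 reads in diabetic samples. By mean level Ighv11-2 had rank 4 among the members in control samples and rank 32 in diabetic samples. The adjusted p rose to 0.064 with no filter on low values, to 0.061 with limma-voom on the implied reads, and to 0.052, 0.080, 0.087 and 0.087 without control 2, diabetic 1, diabetic 2 and diabetic 4 respectively. The table's Ighv11-2 model lies within the span of Ighv4-1, on the same strand, which was listed at 0 in every sample. Its near-copy Ighv11-1 had 1 read in all 9 samples together, in control 2.

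As a share of the summed Ighv FPKM, Ighv11-2 made up 2.79%, 6.54%, 13.4%, 5.85% and 2.93% in control samples 1 to 5. In diabetic samples 1 to 4 it made up 0.225%, 0.686%, 1.98% and 0.562%. The shares therefore did not overlap either, with means of 6.31% ± 4.33 (SD, n = 5) and 0.864% ± 0.771 (SD, n = 4). A two-sided exact permutation test over samples gave p = 0.0159, the smallest that the 126 splits allow (adjusted p = 0.0317 over the 2 shares tested). The plan held no test of shares, and this one reuses the values behind the limma call, so it adds no separate support. Its adjustment covers these 2 shares only, not the 40 genes tested. Counted in reads, the Ighv11-2 share of Ighv reads was 2.50% in diabetic 3 (95% Wilson interval 1.64% to 3.79%) and 3.53% in control 1 (2.73% to 4.55%), the closest pair between the groups. These intervals overlap, and they cover counting error only, since PCR copies are not independent molecules. Against the mu constant region gene Ighm, Ighv11-2 stood at 0.722 to 3.87 FPKM per 100 FPKM of Ighm in control and 0.056 to 0.378 in diabetic samples.

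Ighv12-3, the other gene of the phosphatidylcholine receptors, did not pass the test across genes. Its level was 10.2, 19.2, 28.4, 13.3 and 13.5 FPKM in control and 10.5, 10.2, 5.15 and 11.8 FPKM in diabetic samples. Control 1 was the only control sample below any diabetic sample. The means were 16.9 ± 7.17 FPKM (SD, n = 5) and 9.39 ± 2.92 FPKM (SD, n = 4), with a log2 fold change of -0.76, SE 0.30 and adjusted p = 0.17 (limma). Its share of the summed Ighv FPKM was 3.65%, 13.8%, 8.91%, 8.70% and 4.83% in control samples, against 3.20% to 3.65% in the 4 diabetic samples. The mean share was 7.97% ± 3.99 (SD, n = 5) in control and 3.42% ± 0.184 (SD, n = 4) in diabetic samples, with an exact two-sided permutation p = 0.0317 (adjusted p = 0.0317). This test was also outside the plan, and its adjustment likewise leaves out the other genes tested. Together the pair made up 6.44%, 20.3%, 22.4%, 14.6% and 7.76% of the summed Ighv FPKM in control samples. In diabetic samples they made up 3.63%, 4.34%, 5.19% and 3.97%, all below the control samples.

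**Figure D1:**
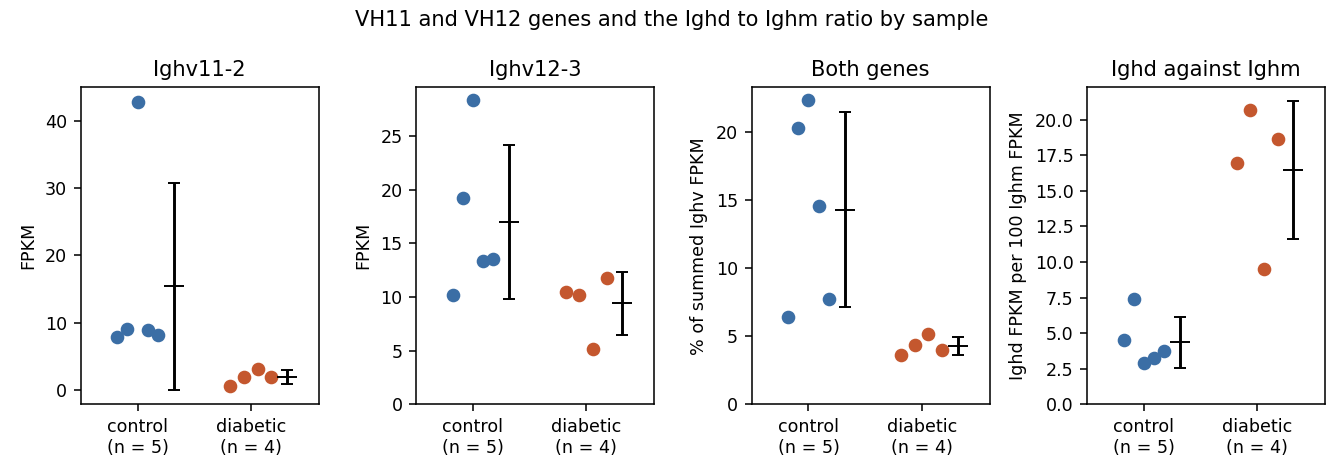
Level in FPKM of Ighv11-2 and Ighv12-3 (y axes) by group (x axis), with a point for each of 5 control and 4 diabetic samples and the mean with SD. The remaining panels show both genes together as a percent of the summed Ighv FPKM, and the IgD constant gene Ighd in FPKM per 100 FPKM of Ighm. Diabetic samples lie below all control samples for Ighv11-2 (0.69 to 3.18 against 7.82 to 42.8 FPKM), whereas the groups overlap for Ighv12-3.

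Ighv7-1, the T15 gene, was low in both groups. It was at 1.95, 1.12, 2.51, 1.18 and 3.42 FPKM in control and 1.23, 2.99, 3.08 and 2.83 FPKM in diabetic samples. The groups overlapped (log2 fold change 0.23, SE 0.25, adjusted p = 0.63, limma). Ighv1-53, Ighv1-55 and Ighv1-26, also used by B-1 cells, are not among the gene names of the deposited data, so they have no values here.

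Of the 75 members, 59 had at least 1 read and 35 had reads in all 9 samples. The remaining 16 were listed at 0 in every sample, and 12 of these overlap the span of another gene model on the same strand. A filter of at least 1 FPKM in at least 4 samples left 40 members to test, and 19 members with reads did not pass it. None of the 40 was called higher in diabetic samples and 1 was called lower at an adjusted p below 0.05, against 4.76% of all 11193 tested genes called in either direction (2.68% higher and 2.08% lower). At an unadjusted p below 0.05 there were 11 of the 40, with 8 higher and 3 lower. limma-voom on the implied reads called none, and had 10 at an unadjusted p below 0.05. The groups did not overlap for 2 of the 40, Ighv11-2 below and Ighv8-12 above the control samples, against 9.42% of all tested genes (4.82% above and 4.6% below). The counts called and not overlapping were thus near or under those over all genes. The log2 fold change was above 0 for 29 of the 40 (72.5%) and for 47.7% of all tested genes, with medians of 0.36 and -0.013. The 40 genes were measured in the same samples, so their signs are not independent. The median log2 deviation of these genes had a pooled SD of 0.47 between samples, above the median change of 0.36. Standard errors ran from 0.25 to 0.63, with a median of 0.36.

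**Figure D2:**
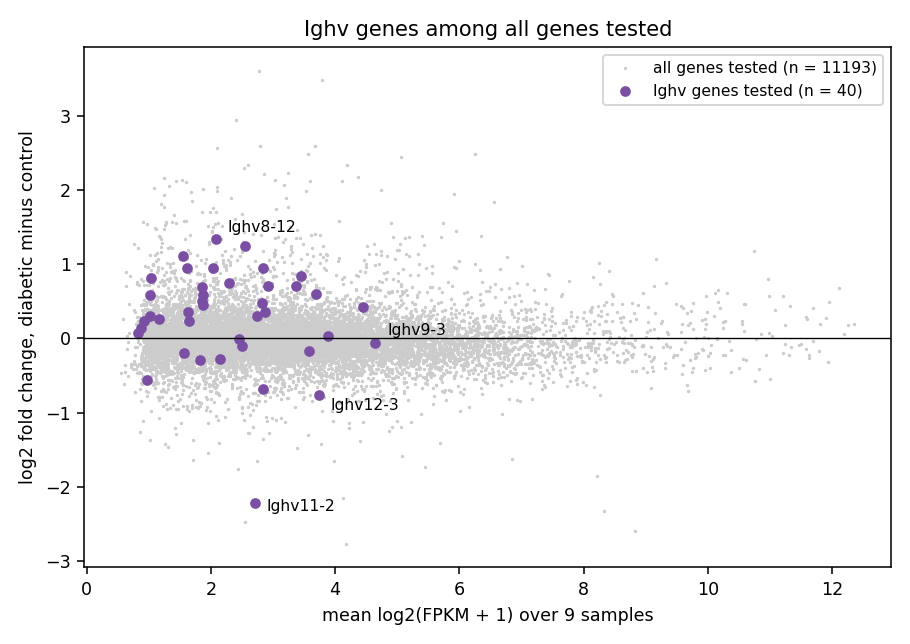
Log2 fold change, diabetic minus control (y axis), against mean log2(FPKM + 1) (x axis) for all 11193 tested genes, with the 40 tested Ighv genes marked. Most Ighv genes lie a little above 0, and Ighv11-2 lies lowest at -2.21.

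Summed over all members, Ighv RNA was 279.8, 139.8, 318.5, 153.0 and 280.2 FPKM in control samples and 306.7, 278.4, 160.6 and 346.7 FPKM in diabetic samples. The groups overlapped, with means of 234 ± 81.9 FPKM (SD, n = 5) and 273 ± 80.1 FPKM (SD, n = 4). Controls 2 and 4 and diabetic 3 were the low samples. The number of members with at least 1 read was 43 to 51 in control and 44 to 54 in diabetic samples. Scaled to Ighm, the sum was 23.4 to 28.8 FPKM per 100 FPKM of Ighm in control and 18.9 to 24.7 in diabetic samples, which also overlapped.

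The summed Ighv FPKM was spread over many genes, with 5 members holding 35.9% and 10 members holding 55.9% of the summed mean FPKM. The 16 members listed at 0 add nothing to this sum, and 12 of them overlap another gene model on the same strand. The sum is therefore not a full account of the repertoire. Ighv9-3 (chromosome 12, 120379265 to 120379695 in the table) had the highest mean in both groups. It was at 35.8, 10.8, 35.5, 16.6 and 37.8 FPKM in control and 27.2, 35.3, 10.8 and 28.7 FPKM in diabetic samples, so both groups held high and low samples (log2 fold change -0.064, SE 0.43, adjusted p = 0.95). Ighv3-6 ranked second in both groups at 20.6 ± 11.1 FPKM (SD, n = 5) and 25.0 ± 3.77 FPKM (SD, n = 4), with adjusted p = 0.53. Ighv10-1 was at 14.7 ± 6.11 FPKM (SD, n = 5) and 14.6 ± 4.84 FPKM (SD, n = 4), with adjusted p = 0.96. Ighv6-3, Ighv7-3, Ighv8-8, Ighv5-16, Ighv6-6, Ighv1-47 and Ighv5-9-1 likewise overlapped between groups, with log2 fold changes from -0.17 to 0.60 and adjusted p from 0.36 to 0.99.

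The leading gene differed from sample to sample. Ighv3-6 led in control 1 with 12.95% of the summed Ighv FPKM, Ighv12-3 in control 2 with 13.8% and Ighv11-2 in control 3 with 13.4%. Ighv3-4 led in control 4 with 12.3% and Ighv9-3 in control 5 with 13.5%. In diabetic samples only Ighv9-3 (8.86% and 12.7% in samples 1 and 2) and Ighv3-6 (12.4% and 8.29% in samples 3 and 4) led. Ighv3-4 was at 18.8 FPKM in control 4, from 93 reads, but at 0 to 1.46 FPKM in the other 8 samples. It missed the filter and was not tested, and it is named after its values were seen.

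**Figure D3:**
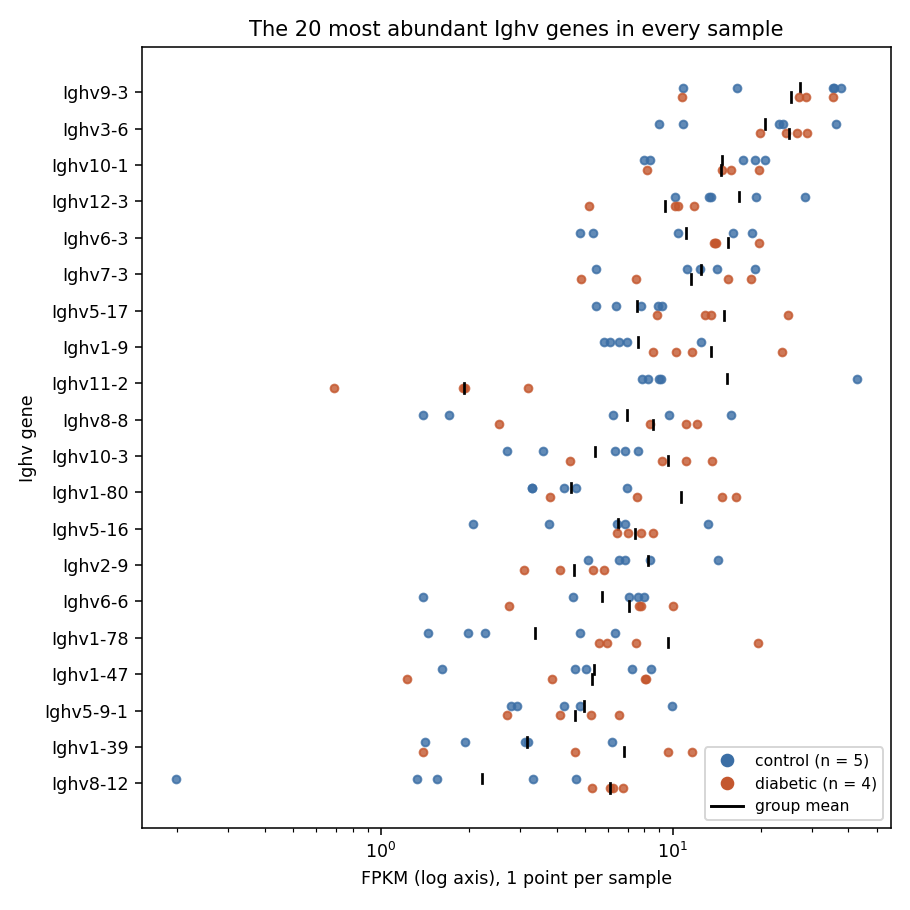
Level in FPKM (x axis, log scale) of the 20 Ighv genes with the highest means (y axis), with a point for each of 5 control and 4 diabetic samples and a black bar at each group mean. The groups overlap for 18 of the 20, and diabetic samples lie below all controls for Ighv11-2 and above all controls for Ighv8-12.

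Several abundant members had higher means in diabetic samples without passing the test. Ighv8-12 (chromosome 12, 122141918 to 122142360 in the table) was at 4.68, 1.33, 3.33, 0.199 and 1.56 FPKM in control and 6.75, 5.30, 6.25 and 6.09 FPKM in diabetic samples. Every diabetic sample was above every control sample (log2 fold change 1.33, SE 0.38, adjusted p = 0.079, limma). Its model overlaps the span of a variable pseudogene on the same strand, so reads of both models could be split. Ighv5-17 was at 8.90, 6.37, 9.16, 5.45 and 7.82 FPKM in control and 12.9, 13.6, 8.80 and 24.9 FPKM in diabetic samples. There diabetic 3 fell within the control range and the other diabetic samples above it (log2 fold change 0.84, SE 0.25, adjusted p = 0.085). Ighv1-78 was at 1.45 to 6.33 FPKM in control and at 19.6, 5.59, 5.95 and 7.50 FPKM in diabetic samples, with diabetic 1 far above the rest (log2 fold change 1.25, SE 0.41, adjusted p = 0.11). Ighv1-80 was at 3.29 to 6.98 FPKM in control and 16.5, 7.53, 3.78 and 14.8 FPKM in diabetic samples (log2 fold change 0.95, SE 0.36, adjusted p = 0.16). Ighv1-9, Ighv10-3, Ighv1-39 and Ighv14-4 had log2 fold changes of 0.69 to 0.75 and adjusted p of 0.18 to 0.45. In the other direction, Ighv2-9 was at 8.36, 6.57, 14.3, 5.12 and 6.86 FPKM in control and 5.80, 4.12, 3.09 and 5.31 FPKM in diabetic samples, with overlapping groups (log2 fold change -0.68, SE 0.25, adjusted p = 0.15). Without diabetic 3, Ighv5-17 and Ighv1-80 passed the test as higher, and Ighv8-12 passed without control 1.

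By family, 14 of the 16 had reads and 13 had tested members. Family 1, the largest, has 25 members, of which 13 had reads and 9 were tested, with 7 log2 fold changes above 0 and 2 below (median 0.71, none called). Most family 1 members without reads overlap another gene model on the same strand, so its sums and shares cover only models that received reads. The share of family 1 in the summed Ighv FPKM was 13.2%, 15.0%, 12.03%, 14.4% and 13.2% in control and 22.7%, 17.2%, 17.6% and 23.4% in diabetic samples. These shares did not overlap, but they did once Ighv11-2 and Ighv12-3 were left out of the sum (14.1% to 18.8% against 17.97% to 24.4%). Family 11 was the other of the 2 families, among the 14 with reads, whose shares did not overlap. Of its 573 reads 572 were from Ighv11-2, so it repeats the result for that gene. In FPKM, the groups did not overlap for 9.42% of all tested genes. In FPKM, family 1 summed to 31.0 ± 8.74 (SD, n = 5) and 56.8 ± 23.5 (SD, n = 4). Family 3 summed to 31.4 ± 11.8 FPKM (SD, n = 5) and 32.7 ± 4.01 FPKM (SD, n = 4), and family 9 to 31.3 ± 14.1 FPKM (SD, n = 5) and 35.1 ± 12.1 FPKM (SD, n = 4). Family 5 summed to 22.5 ± 10.0 FPKM (SD, n = 5) and 34.4 ± 11.4 FPKM (SD, n = 4), with 4 of its 5 tested genes above 0. Family 2 was lower in mean in diabetic samples, at 12.3 ± 5.66 FPKM (SD, n = 5) and 8.77 ± 2.08 FPKM (SD, n = 4), with 2 of 3 tested genes below 0.

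**Figure D4:**
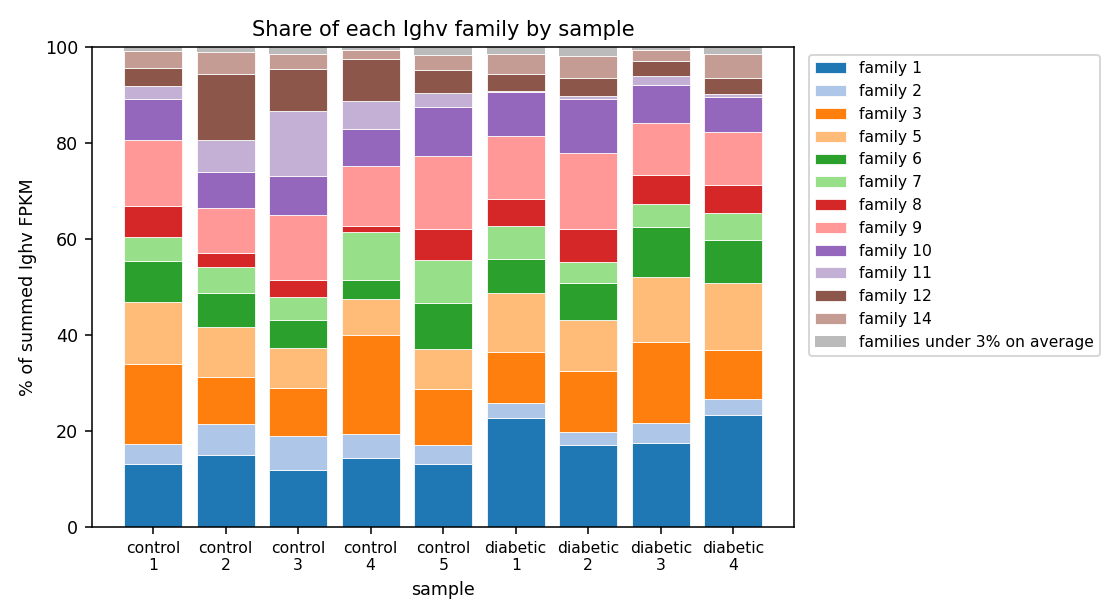
Share of the summed Ighv FPKM, in percent, held by each Ighv family (y axis, stacked colours) in each of 5 control and 4 diabetic samples (x axis). Family 1 lies higher (17.2% to 23.4% against 12.03% to 15.0%) and family 11, nearly all Ighv11-2, lower in diabetic samples, while the other families overlap. The family 1 shares overlap once Ighv11-2 and Ighv12-3 are left out of the sum.

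The members span 210.1 to 3086 kb from Ighm, as the table places them. Of the 20 tested genes nearer to Ighm, 12 had a log2 fold change above 0 (median 0.23), and of the 20 farther from it 17 did (median 0.54). Across the 40 genes the correlation of log2 fold change with distance was r = 0.36, as a description, since neighbouring genes share families and samples.

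**Figure D5:**
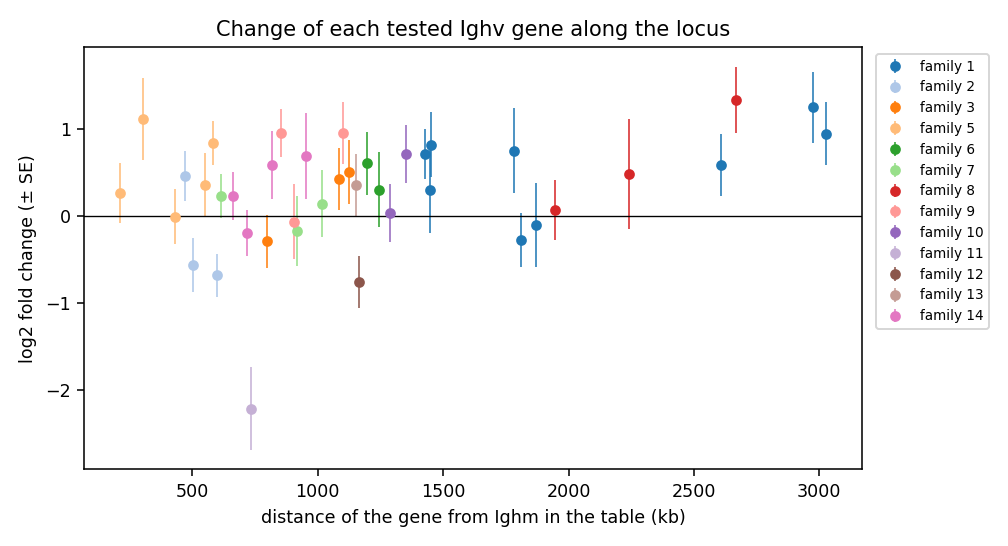
Log2 fold change, diabetic minus control, with its SE as a bar (y axis), of the 40 tested Ighv genes, coloured by family, against distance from Ighm in kb (x axis). The 20 nearer genes have a median of 0.23 and the 20 farther genes a median of 0.54, and Ighv11-2 stands alone at -2.21.

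Levels over the 9 samples were also set beside Ighm, the constant gene of IgM. Pearson's r of log2(FPKM + 1) was highest for Ighv10-3 (0.92), Ighv14-4 (0.91) and Ighv8-8 (0.85). It was lowest for Ighv11-2 (-0.40), Ighv12-3 (-0.18) and Ighv2-9 (0.028). Ighv11-2 and Ighv12-3 had r = 0.72 with each other. These values describe 9 libraries that differ in group and B cell RNA.

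Among the 12 heavy and light chain constant genes listed, 9 were tested, 2 rose and none fell. Ighd, the IgD constant gene of mature follicular B cells, rose from 48.6, 37.8, 32.5, 21.1 and 38.1 FPKM to 211, 305, 80.3 and 289 FPKM (log2 fold change 2.48, SE 0.38, adjusted p = 0.011). All diabetic samples were above all control samples, by 6.21-fold in the means. Igkc, the kappa light chain constant gene, rose from 1216 ± 265 FPKM (SD, n = 5) to 2822 ± 832 FPKM (SD, n = 4), with adjusted p = 0.025. This call was lost with no filter on low values (adjusted p = 0.063) and without control 4, diabetic 1, diabetic 2 or diabetic 4 (0.057, 0.067, 0.082 and 0.080). Ighm was at 876 ± 273 FPKM (SD, n = 5) and 1276 ± 317 FPKM (SD, n = 4) and did not pass (log2 fold change 0.57, adjusted p = 0.23). Of the 43 tested light chain variable genes, 4 rose and none fell, with 40 log2 fold changes above 0 (median 0.84). Over all tested genes 2.68% were called higher and 2.08% lower, and 47.7% of log2 fold changes were above 0 (median -0.013).

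Markers of B cell subsets moved unevenly, where 2.68% of all tested genes were called higher and 2.08% lower. Of 5 tested follicular B cell genes 4 rose, among them Fcer2a, the IgE receptor CD23, from 3.85 ± 1.02 FPKM (SD, n = 5) to 24.2 ± 12.6 FPKM (SD, n = 4), and the chemokine receptor Ccr7, which T cells also express. Of 9 tested general B cell genes, Fcmr, the IgM receptor, and Pou2af1, a B cell transcriptional coactivator, rose. The Pou2af1 call was lost with no filter on low values (adjusted p = 0.058) and without control 3, diabetic 1, diabetic 2 or diabetic 4 (0.060, 0.062, 0.077 and 0.080). Of 7 tested B-1 cell genes only Cd5 rose, a gene that T cells also express. Across these 7 genes the log2 fold change was above 0 for 5 and below 0 for 2 (median 0.23). The B-1 regulators Zbtb32 (log2 fold change -0.44, adjusted p = 0.50) and Bhlhe41 (0.072, adjusted p = 0.84), named after values were seen, did not pass. None of 11 B cell receptor signalling genes, 7 plasma cell genes or 3 recombination and class switching genes passed. Of 7 tested macrophage genes Mrc1, the mannose receptor, passed as lower (log2 fold change -1.13, adjusted p = 0.033). It passed in only 1 of the 9 fits that left out a sample, the fit without diabetic 3 (adjusted p = 0.052 to 0.10 in the others), and not with no filter on low values (0.075). None of 5 large peritoneal macrophage or 4 neutrophil genes passed. All 11 T cell genes rose, and 5 defining T cell markers summed to 19.2 to 30.3 FPKM in control and 52.8 to 204 FPKM in diabetic samples. The part of these T cell and follicular B cell differences in the Ighv values was not tested.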

How the data were processed

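RNA from 9 peritoneal exudates, extracted with TRIzol, was made into libraries with a SMARTER mRNA kit, per the labels' protocols. The authors deposited FPKM values per gene with gene length and position, per the file headers. GRCm38 and mm10 are the builds in the submitters' processing notes, whereas the identifiers are those of a C57BL/6NJ gene set, so positions are given as the table has them. Which aligner, counter and strand setting were used is not given in the sources used here. FPKM times gene length gave whole reads for 100% of values within 0.05 of a whole read in every sample, 14156421 to 16169060 per sample. No sample column was left unmatched.

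Log2(FPKM + 1) values of the groups were compared by limma 3.58.1 (R 4.3.3), using trend and robust moderation, over 11193 genes at 1 FPKM or more in at least 4 samples. P-values were adjusted by Benjamini-Hochberg over all of them, with a threshold of 0.05. A count test had been planned for raw counts, but the unit is FPKM, so limma was used and limma-voom on implied reads served as an alternative. Fold changes on this scale understate the change of low genes. On simulated data for the diabetic against control comparison over 11193 genes, 76 of 100 genes changed 2-fold and 97 of 100 changed 4-fold were recovered, with 10 false calls. The changed genes were drawn at random from all tested genes. These counts therefore do not give the recovery for the Ighv genes, whose standard errors had a median of 0.36. Shares were tested by exact permutation with scipy 1.17.1. All 75 members matched a GENCODE M21 transcript by symbol, 68 with the table's length. Alternatives were another pseudocount, other filters, rescaling, no moderation, a replicate block and leaving out each sample.

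Genes named are the 20 members with the highest means, those that passed, known B-1 genes, family leaders, the 3 most and least like Ighm, and up to 4 genes of each list. Ighv3-4, Ighm, Igha, Jchain, Zbtb32 and Bhlhe41, and members outside these that are given as far from their group or as called on leaving out a sample, were added after values were seen. The members and lists were chosen with earlier results of these data known.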

Additional observations from a re-analysis of the deposited data

Results flagged for a closer look

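Samples far from the rest of their group by Dixon's test were sought in 140 groups of 4 or 5 samples, and 17 were found. The limits used let about 1 in 20 groups through by chance if values are normally distributed, but FPKM was used without a log. The groups share the same libraries, and Ighv3-4, Igha and Jchain, all among the 17, were added after values were seen. The count of 17 therefore cannot be set against chance. Among Ighv genes in control samples, control 3 was at 42.8 FPKM for Ighv11-2 (the others at 7.82 to 9.13) and at 4.99 FPKM for Ighv9-4 (0.968 to 1.83). Control 1 was at 12.5 FPKM for Ighv1-9 (the others at 5.81 to 6.98) and at 9.98 FPKM for Ighv5-9-1 (2.80 to 4.81). Control 4 was at 18.8 FPKM for Ighv3-4 (the others at 0.192 to 1.46).

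Among diabetic samples, diabetic 1 was at 19.6 FPKM for Ighv1-78 (the others at 5.59 to 7.50), at 10.3 FPKM for Ighv9-4 (3.28 to 4.20) and at only 1.23 FPKM for Ighv7-1 (2.83 to 3.08). Diabetic 4 was at 19.8 FPKM for Ighv6-3 (the others at 13.9 to 14.1) and at 2.92 FPKM for Ighv14-2 (1.39 to 1.54). The Ighv7-1 flag rests on 7 reads in diabetic 1 and 16 in each other diabetic sample. The Ighv14-2 flag rests on 16 reads in diabetic 4 and 7 or 8 in the others. Whether either exceeds counting error was not tested.

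Outside the Ighv genes, diabetic 1 was at 154.6 FPKM for Igha (the others at 2.12 to 14.2) and at 24.5 FPKM for Jchain (1.86 to 4.18). Diabetic 3 was low for the B lineage genes Igkc (1577 FPKM against 3174 to 3295), Mzb1 (46.4 against 108.6 to 111.0) and Pou2af1 (57.3 against 126.6 to 136.9), and high for the macrophage gene Mrc1 (41.0 against 17.8 to 20.8). Control 5 was at 17.9 FPKM for Blnk (the others at 20.4 to 21.2).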

How the results depend on the processing

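Ighv11-2 stayed lower in diabetic samples in all 16 alternative fits (log2 fold change -2.72 to -1.77) and passed in 10 of them. With no filter on low values, 0 Ighv genes were called lower, 5 B lineage genes (those of the constant gene, receptor, B cell subset, plasma cell and recombination lists) were called higher (8 in the reported fit) and 183 genes were called in all (533 in the reported fit). limma-voom called 0 Ighv genes lower and gave Ighv5-9-1 a log2 fold change of 0.042. The replicate numbers gave no clear sign of pairing: the 4 same-number correlations were 0.02, 0.16, -0.26 and -0.18, and 1 of 4 diabetic samples correlated best with its own number. With only 4 correlations, this check cannot exclude that same-numbered samples were handled together. With the replicate number as a block, Ighv11-2 passed (log2 fold change -2.33, adjusted p = 0.041), 0 B lineage genes and 62 genes in all were called, Igkc (adjusted p = 0.12), Pou2af1 (0.089) and Mrc1 (0.14) among the calls lost, and Ighv1-47 (0.070), Ighv5-9-1 (0.012) and Ighv9-3 (0.087) changed sign. Leaving out each sample gave 0 to 3 Ighv genes called higher, 0 to 1 lower, 5 to 17 B lineage genes higher and 146 to 1170 genes in all, with 1170 without diabetic 3. The 3 higher calls without diabetic 3 were Ighv5-17, Ighv1-80 and Ighv1-12, and Ighv9-1 passed without control 5. In these fits the log2 fold change crossed 0 for Ighv1-47 (-0.39 to 0.33), Ighv10-1 (-0.14 to 0.27), Ighv5-9-1 (-0.16 to 0.24), Ighv6-6 (-0.034 to 0.64), Ighv7-3 (-0.44 to 0.14), Ighv9-3 (-0.34 to 0.29) and Bhlhe41 (-0.057 to 0.17). The cause was not tested. The median over the tested Ighv genes was 0.16 to 0.51 in them. Leaving Ighv11-2 and Ighv12-3 out of the summed Ighv FPKM, chosen after seeing the data, gave a log2 ratio of 0.37 against 0.22. Members with few reads carry counting error that this depth cannot resolve.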

Other observations

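Igha, the IgA constant gene, was at 0.713 to 1.78 FPKM in control samples and at 154.6, 8.64, 2.12 and 14.2 FPKM in diabetic samples. All diabetic samples were above all control samples, but the gene did not pass (log2 fold change 2.94, SE 0.90, adjusted p = 0.095, limma). A variable pseudogene model whose span covers many family 1 and family 8 members (MGP_C57BL6NJ_G0000297) was the only tested one of 69 on chromosome 12, at 9.17 ± 5.21 FPKM (SD, n = 5) and 11.5 ± 3.72 FPKM (SD, n = 4), with adjusted p = 0.60. The table also holds 14 heavy chain locus variable genes named by identifier only, and none had reads.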
